A study of Brassica juncea with 4 samples.

Results

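On arrays of mustard leaf RNA, 91 of 43603 probes gave a signal well above background in wild-type leaves and none that clear in leaves of plants that overexpress a cryptochrome. "Well above background" is the scanner software's own mark for a spot that clears its background by a margin. The 91 probes were chosen by these measured values: the mark on both wild-type arrays and on neither BnCRY2aOE array, and a level at least 2-fold lower in each of the 4 pairings between the genotypes' arrays. Their genotype difference is therefore given as a description, with no test. They are called wild-type-only probes here, and the name says nothing more than the rule.

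The plants were Brassica juncea (Indian mustard), cultivar RLM-198. The 2 groups were wild type and transgenic BnCRY2aOE, labelled as overexpressing BnCRY2a, and no special treatment was given to either. Leaves were taken 45 days after sowing, and each genotype has 2 arrays, labelled as biological replicates. The sources used here do not give the promoter of the transgene, how many transgenic lines were used or how many plants stand behind an array. The array carries probes designed for Brassica napus, so a signal also depends on how well a B. juncea transcript matches the probe.

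Cryptochromes are blue-light receptors of plants. Light activates cryptochrome 2, which then acts with transcription factors and with the machinery that degrades them, and in Arabidopsis it promotes flowering in long days and shortens the seedling stem. In the files a probe carries an ID and a source identifier, and no gene name, description or bases. No gene can be named from them, so roles of the 91 transcripts, leaf marker genes and the level of the transgene are not described here.

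An array had 67.5% to 71.4% of its probes well above background, and all 4 arrays lay on 1 slide read in 1 scan. Levels are given as log2 of the signal divided by the 75th percentile of its own array, so a level of 0 lies at that percentile. The lowest level well above background was -4.57 and -4.65 on wild type replicates 1 and 2, and -4.76 and -4.82 on BnCRY2aOE replicates 1 and 2. In processed brightness units these limits were 9.28, 9.06, 9.39 and 7.68.

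The 91 probes stood for 89 source identifiers, and each had 1 spot per array. They were 0.317% of the 28684 probes that were well above background on both wild-type arrays. The detection part of the rule alone was met by 167 probes, which is 0.582% of those 28684, and 76 of these missed the 2-fold difference in some pairing. Among all 29949 probes tested between the genotypes, 251 (0.838%) were at least 2-fold lower in all 4 pairings. The limma test over those 29949 probes called 77 of them lower in BnCRY2aOE at an adjusted p under 0.05 (0.257%). It took the stand-in values described below as measurements, and 25 of the 91 had such values on both BnCRY2aOE arrays. Of the 91, 41 were among the 77. The rule used the same contrast, so nothing is read from that count, which was 12 without wild type replicate 1. The size of the set depends on the processing. After normexp correction 13 probes met the rule, but this step adds an offset of 50, which by itself shrinks the fold differences of weak probes. Asking for a 4-fold difference left 48.

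Because a member has no clear signal in BnCRY2aOE, the fold difference between its genotype means is given only as a bound. The words "at least" below refer to those means, and the lower wild-type array alone can give a smaller bound. For each BnCRY2aOE array, the probe's level was replaced by that array's detection limit (its lowest level well above background) where it lay below it, and the mean of both arrays was subtracted from the wild-type mean on the log2 scale. Below that limit lay 89 of the 91 on BnCRY2aOE replicate 1 and 87 on replicate 2. The rest had no mark either and entered with their own levels. Member levels ran from -4.37 to 2.85 with a median of -3.51 on wild type replicate 1 and from -4.63 to 2.82 with a median of -3.49 on replicate 2. On BnCRY2aOE replicate 1 they ran from -7.08 to -4.54 with a median of -6.22, and on replicate 2 from -7.14 to -4.68 with a median of -5.92. The lowest wild-type levels of the set thus lie beside the highest BnCRY2aOE levels, both at the detection limit. The median bound over the 91 was 1.23 on the log2 scale, or 2.35-fold, and single bounds ran from 1.22-fold to 198-fold. Bounds of 100-fold or more were found for 2 probes, of 16-fold to under 100-fold for 9, of 4-fold to under 16-fold for 17 and of 2-fold to under 4-fold for 34. For the remaining 29 the bound was under 2-fold, although the levels themselves were at least 2-fold apart as the rule asks. The rule, too, took the stand-in values described below as levels, on both BnCRY2aOE arrays for some of these 29. In whole-leaf RNA, fewer cells of a type and less RNA per cell cannot be told apart.

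The largest bounds belonged to a pair of probes with strong wild-type signals. Probe A_46_P148134 (source TA24975_3708) read 1588 and 1602 brightness units on wild type replicates 1 and 2, and 2.42 and 5.30 on BnCRY2aOE replicates 1 and 2. It was at least 198-fold lower in BnCRY2aOE. In wild type it was brighter than 93.6% of all probes, while both transgenic samples were under the detection limit. The software still called its signal on BnCRY2aOE replicate 2 significant.

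Probe A_46_P002941 (source TC175571) read 1549 and 1419 units in wild type against 2.19 and 1.75 units in BnCRY2aOE. The bound was 184-fold, and the wild-type level lay above 93.1% of probes. Its wild-type levels were 2.82 and 2.65, and neither BnCRY2aOE spot had a signal that the software called significant.

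The next 4 probes were brighter in wild type than 81.5% to 85.2% of all probes and had bounds of 46.3-fold to 65.1-fold. Probe A_46_P131509 (TA19542_3708) read 493 and 558 units in wild type against 4.01 and 3.68 in BnCRY2aOE, at least 65.1-fold lower. Probe A_46_P221079 (CN826037) read 618 and 294 against 2.25 and 1.81, at least 52.9-fold lower. Its wild-type arrays were more than 2-fold apart, yet the lower of them was far above both BnCRY2aOE values. Probe A_46_P160669 (TA29043_3708) read 374 and 440 against 2.29 and 1.93, at least 50.3-fold lower. Probe A_46_P273678 (EE468369) read 368 and 379 against 3.70 and 6.18, at least 46.3-fold lower. The genotypes did not overlap in any of these 4 probes, as the rule requires. A_46_P131509 and A_46_P273678 had signals called significant on both BnCRY2aOE arrays, and A_46_P221079 and A_46_P160669 on neither.

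The last 4 of the first 10 lay near the 75th percentile in wild type. Probe A_46_P329270 (TC185259) read 220 and 216 units against 8.89 and 7.50 in BnCRY2aOE, at least 27.0-fold lower. Its BnCRY2aOE signals were just under the limits of 9.39 and 7.68 units, and both were positive and significant by the looser mark of the software. Probe A_46_P128954 (EE474405) read 205 and 181 against 2.66 and 2.08, at least 23.8-fold lower. Probe A_46_P160814 (TA29086_3708) read 164 and 173 against 2.25 and 2.81, at least 20.9-fold lower. Probe A_46_P318610 (TC175940) read 206 and 136 against 2.01 and 7.21, at least 20.8-fold lower. In the last of these, BnCRY2aOE replicate 2 was close to its limit and replicate 1 had no significant signal.

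Most members had weak wild-type signals. The median wild-type level was -3.52 for the 91 and -0.82 for the 28684 probes well above background on both wild-type arrays. A level of 0 or more in wild type was reached by 6 of the 91 and by 10865 of the 28684. No member had a wild-type level of 3 or more. Of the probes with wild-type levels from -5 to under -4, 18 of 872 were members (2.06%). The share was 1.03% (40 of 3869) from -4 to under -3 and 0.342% (15 of 4392) from -3 to under -2. From -2 upward it was 0.187% or less in every step of 1 on the log2 scale. Membership also needs the 2-fold difference. Without the well-above-background mark on either BnCRY2aOE array were 64 of the 872, 70 of the 3869 and 15 of the 4392. Loss of that mark thus had its highest share next to the detection limit.

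A split at a wild-type level of -3, which is 8-fold below the 75th percentile, was chosen after the values were seen and separates 33 brighter from 58 dimmer members. A bound is the wild-type level over a nearly fixed limit, so the split also parts the bounds: the median was 8.66-fold for the brighter and 2.00-fold for the dimmer members, which is a description only. All 33 probes at or above that level that met the detection part of the rule were members, as their distance from the limit makes nearly certain, and below it 58 of 134 were. Without a mark on either BnCRY2aOE array were 0.138% of the 23943 wild-type-detected probes at or above the level and 2.83% of the 4741 below it.

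Wild-type signals were measured with different precision in these classes. The scanner software gives an error for each spot. The lower of the 2 wild-type ratios of signal to error had a median of 9.55 in the brighter members and 5.80 in the dimmer ones. Between the wild-type arrays the median gap was 0.16 on the log2 scale for brighter and 0.24 for dimmer members. Over all wild-type-detected probes it was 0.15 at or above the level of -3 and 0.24 below it. Wild type replicate 1 was the higher array for 54 of the 91. More than 2-fold between the wild-type arrays lay only A_46_P221079, described above, and A_46_P375540 (TC210288), at -2.33 and -3.69. They are named here because they were the exceptions, which was seen from the values.

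The signal that remained in BnCRY2aOE leaves differed among the members. A second, looser mark of the scanner software says that a spot's signal is positive and significantly different from background. It was present on both BnCRY2aOE arrays for 53 of the 91 (58.2%), on 1 array for 13 (14.3%) and on neither for 25 (27.5%). Of the 13, 3 carried it on replicate 1 and 10 on replicate 2. Over all 11617 probes that were well above background on neither BnCRY2aOE array, the corresponding shares were 34.8%, 28.3% and 36.9%. The label "detected only in wild type" therefore holds under the stricter mark for all 91, and under the looser mark in BnCRY2aOE for 25.

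Background-subtracted signals show this without a floor. Over the 91 members their median was 3.46 brightness units on BnCRY2aOE replicate 1, with a lowest value of -3.61 and a highest of 10.72. On replicate 2 the median was 3.43, the lowest value -3.75 and the highest 8.54. In wild type the lowest values were 11.1 on replicate 1 and 10.1 on replicate 2, so the highest member signal on BnCRY2aOE replicate 1 lay above the lowest on wild type replicate 2, which belong to different probes. At or below 0 on both BnCRY2aOE arrays were 9 members, among them A_46_P221079, at -1.66 and -2.83 units, and A_46_P160669, at -2.36 and -2.01. Both of these were among the 10 largest bounds.

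The 25 probes with no looser mark in BnCRY2aOE were not the weakest in wild type by their median, although the weakest member of all was among them. Their median wild-type level was -2.80 and their median bound 3.97-fold, against -3.62 and 2.25-fold for the 53 with the mark on both arrays. Of the 11 probes with bounds of 16-fold or more, 4 had the looser mark on neither BnCRY2aOE array, 3 on 1 and 4 on both. Among the brighter members 14 of 33 (42.4%) had it on neither array, and among the dimmer ones 11 of 58 (19.0%). Where the mark was missing, the processed signal equalled its own error within 1%, which is a stand-in value and not a measurement. This held for 63 of the 182 BnCRY2aOE values of members, on both arrays for those 25, and for 0 of their wild-type values. The limma test used such values, so for those 25 the spread between the BnCRY2aOE arrays was not one of replicate measurements. The 2-fold part of the rule also compared such values with wild-type levels.

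Several source identifiers are covered by more than 1 probe, which gives a second reading of the same identifier in the same leaves. Of the 89 identifiers, 5 had another probe on the array. In 2 of them both probes were members. For identifier EE435374, probe A_46_P054731 had levels of -2.20 and -2.39 in wild type and -6.95 and -6.99 in BnCRY2aOE, and probe A_46_P172959 had -2.99 and -3.14 against -7.04 and -7.07. All 4 BnCRY2aOE readings of this identifier lacked even the looser mark. For identifier EE440995, probe A_46_P031241 read -3.47 and -3.66 in wild type and -6.81 and -6.31 in BnCRY2aOE, and probe A_46_P205994 read -3.58 and -3.83 against -7.00 and -7.08. Bounds were 5.65-fold and 3.31-fold for the first identifier and 2.34-fold and 2.12-fold for the second.

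The other 3 identifiers gave probes that differed from each other. For CX194964, member A_46_P035346 had levels of -2.32 and -2.50 in wild type and -6.78 and -5.79 in BnCRY2aOE. Probe A_46_P234154 of the same identifier was well above background on all 4 arrays, at -2.06 and -1.73 in wild type and -2.06 and -2.55 in BnCRY2aOE. Of this pair, the member alone lacked the well-above-background mark in BnCRY2aOE, and it kept the looser mark on both of those arrays. For EV098787, member A_46_P037371 read -3.63 and -3.62 in wild type and -5.47 and -6.38 in BnCRY2aOE. Its partner A_46_P165449 read -1.11 and -0.89 against -0.62 and -1.21, which overlap.

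For EE473006, member A_46_P010271 read -4.35 and -3.50 in wild type and -6.08 and -6.67 in BnCRY2aOE. Probe A_46_P193379 was well above background on no array. Probe A_46_P288963 was so on BnCRY2aOE replicate 1 alone, at -3.07, with -5.72 on replicate 2 and -5.43 and -6.22 in wild type. The 3 probes of this identifier thus gave 3 different patterns. Whether probes of 1 identifier read the same transcript in B. juncea was not tested.

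Source identifiers of the members started with the same letters as those of other probes, in different shares. The most common start was EE, with 24 of 91 members (26.4%) against 12.3% of wild-type-detected probes. It was followed by TC, with 18 members (19.8% against 16.2%), and TA, with 13 (14.3% against 19.3%). Identifiers starting with EV were 7 of the 91 (7.69%) and 17.1% of wild-type-detected probes. These shares were not tested, and what the letters stand for is not given in the files.

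Member spots were not spread evenly over the array. With the 532 rows and 85 columns cut into 9 equal parts, the central part held 22 of the 91 members (24.2%) and 11.4% of all wild-type-detected probes. Among the dimmer members 18 of 58 (31.0%) were in the central part, against 12.6% of wild-type-detected probes below the level of -3. Of the 33 brighter members 4 (12.1%) were there, against 11.2% at or above that level. The part of spot position in the set was not tested. The local background around member spots had the same median as over all probes on each array, 23 to 24 brightness units.

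Spots next to the members were compared in the same way. For each member, the other spots within 2 rows and 1 column that were well above background on both wild-type arrays were taken, whatever their marks in BnCRY2aOE, a median of 9 spots. Of the 826 spots so taken, 6 (0.726%) were well above background on neither BnCRY2aOE array, against 0.583% of all 28833 spots marked on both wild-type arrays. The median difference between BnCRY2aOE and wild type of a member's neighbours ranged from -0.62 to 0.31 on the log2 scale, with a median of -0.03 over the 91 members. This choice of neighbours was made after the data were seen.

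At the 2-fold limit the members shade into probes outside the set. Just inside were A_46_P242559, A_46_P381278 and A_46_P261353, whose smallest differences over the 4 pairings were 1.01, 1.02 and 1.04 on the log2 scale. Just outside were A_46_P176304, A_46_P138614 and A_46_P301930, with 0.99, 0.98 and 0.97. All 6 had wild-type means between -4.04 and -3.64, so the probes on either side of the limit were dim alike.

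The rule also leaves out probes that kept the mark on a single BnCRY2aOE array. There were 537 such probes among the 28684, and 23 of them were at least 2-fold lower in all 4 pairings. The same rule with the genotypes exchanged gave 94 probes, with a median bound of 2.61-fold and 11 bounds of 16-fold or more, where the wild-type-only set also had 11. Of those 94, 40 had a BnCRY2aOE level of -3 or more, against 33 of the 91 in wild type. No test of the difference between these sets was made, since both were chosen on the contrast.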

How the data were processed

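One-colour Agilent arrays of leaf RNA from 2 wild-type and 2 BnCRY2aOE samples were used. Per the file headers, Agilent Feature Extraction 10.7.3.1 made the deposited intensity values. The deposited series table holds log2 values, judged from them to be scaled per array and centred per probe; its exact scaling stays unknown, and it served as an alternative. Control spots were left out, and the 10 to 55 outlier spots of an array counted as missing, none of them a member's. Processed intensity was divided by the 75th percentile of its array, taken as log2 and averaged per probe. Genotypes were compared with limma 3.58.1 in R 4.3.3 (lmFit, eBayes, two-sided, Benjamini-Hochberg) over the 29949 probes that were well above background on both wild-type or on both BnCRY2aOE arrays, with genotype as the only term. The fit was tested on simulated data. Precision is limited by having 2 arrays a genotype. Named probes are the 10 with the largest bounds, which include the 5 brightest in wild type, those sharing a source identifier, and the 3 on each side of the limit; 1 further probe, A_46_P375540, was named after its values were seen. Gene lists and markers were not used, since no probe has a gene name. The members and lists were chosen with earlier results of these data known. The samples are labelled as biological replicates, but the labels do not say that they came from separate plants. How much of the spread between them is technical is therefore not known. Alternatives were other scalings, background corrections, detection marks, size limits and variance models, a replicate block and leaving out each array.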

Additional observations from a re-analysis of the deposited data

How the results depend on the processing

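The count of 91 stayed between 66 and 95 with the authors' value table, quantile scaling, median scaling, outlier spots kept, a mark asked of every spot, and the looser mark in both genotypes, although the looser mark shared 25 probes with the 91. Keeping outlier spots or asking for every spot could not remove a member, since each has a single spot and none of these is an outlier. The authors' value table and the quantile and median scalings kept the same well-above-background marks. They could therefore change only which of the 167 probes meeting the detection part also met the 2-fold limit. The count was 167 with no limit on size, 48 with a 4-fold limit, 13 after normexp background correction (offset of 50), 18 with marked spots kept out of the normexp fit and 25 when the looser mark also had to be missing in BnCRY2aOE. Leaving out an array gave 186 to 316, since fewer arrays must then meet the rule: 316 and 304 without wild type replicate 1 or 2, 186 and 252 without BnCRY2aOE replicate 1 or 2. The median bound of 1.23 (log2) was 1.04 with the 1st percentile of levels well above background as the floor. The 41 limma calls among the members, of 136 in all, were 21 of 46 with no filter on dim probes, 6 of 31 after normexp, 9 of 48 with marked spots out of its fit, 27 of 109 with dim signals raised to the floor and 16 of 38 with a replicate block. Leaving out 1 array gave 12 to 38 member calls among 32 to 242: 12 among 32 and 30 among 242 when wild type replicate 1 or 2 was left out, and 27 among 121 and 38 among 214 for BnCRY2aOE replicate 1 or 2. The lone array is then assumed to vary like the other genotype. The offset of 50 by itself shrinks the fold differences of weak probes. What else causes these shifts was not tested. The deviations of arrays with the same number correlated at r = -0.16 over probes, so the numbers were not shown to pair samples, and a crossed block gave 47 of 167. Normexp without marked spots, the crossed block, the looser mark required to be missing and the neighbour spots were chosen after seeing the data. Signal near background limits nearly every fold difference here to a bound.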
